A study of Mus musculus with 42 samples.

Results

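Transcripts of 10 genes that mark testis macrophages were followed through RNA-seq libraries of sorted mouse spermatogonia. The genes were taken from a fixed list (Lyz2, Mrc1, Csf1r, Adgre1, Cd68, Cd163, C1qa, C1qb, C1qc and Cx3cr1) and were found by gene ID in a count table of 27179 genes. All 10 were in the table and all 10 passed the filter on low counts in every comparison. The study asked what the chromatin remodeler CHD8 does in spermatogonia, the germ cells that divide before meiosis, and sorted Thy1+ and c-Kit+ cells from testes of control and mutant C57BL/6J males at 10 days post-partum (dpp). Each of the 4 groups has 3 libraries, 12 in all. Control males carried Ddx4-Cre and Chd8+/F, a wild-type and a floxed allele. Mutant males carried Ddx4-Cre and Chd8F/-, a floxed and an already deleted allele. Ddx4-Cre and a floxed allele are thus common to all groups, and Ddx4-Cre acts in germ cells, so that it should leave the floxed allele of macrophages in place, whereas the deleted allele of the mutants is not limited to germ cells by Cre. Per the study's methods, collagenase digestion and a plating step were used to remove interstitial and other somatic cells, c-Kit+ cells were then taken with magnetic beads, and Thy1+ cells were taken from what the c-Kit beads left.

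Macrophages are the main resident immune cells of the testis. They lie between the Leydig cells of the interstitium and on the surface of the seminiferous tubules, and in the adult mouse the interstitial ones are known for Csf1r and the mannose receptor and the peritubular ones for MHC class II. Their survival depends on signals through the receptor Csf1r, and they take up debris, present antigen and make complement. The labels name the sorted cells as spermatogonia, so the 10 genes are read here as transcripts of another cell type in germ cell libraries. In such bulk libraries, fewer macrophages and less RNA per macrophage cannot be told apart.

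The total count of a library was 32266861 to 45396233. Levels are given as CPM, the counts of a gene for a fixed number of counts in its library, after TMM scaling, an edgeR method that adjusts the library total for composition, and as CPM per kilobase of exon (RPKM) where genes are compared with each other. Differences were tested by edgeR's quasi-likelihood F test over all genes, with p adjusted by Benjamini-Hochberg (FDR), and a gene was called where the FDR was under 0.05 and the log2 fold change was beyond 0.5 in either direction. For the interaction, the FDR alone decided. Fits took the libraries as unpaired, except where the replicate number is named as a block. Per the study's methods, cells were isolated from the testes of 3 male pups for each analysis and mutants were compared with littermates. The sources do not say whether a library holds 1 pup or a pool, nor which libraries share a litter, so p-values measure the spread between these libraries. The sort was visible in the antigens' own genes: between control populations (Thy1+ minus c-Kit+), Thy1 had a log2 fold change of 4.22 (FDR = 2.4e-05) and Kit of −1.19 (FDR = 0.00701). The targeted gene Chd8 had 258 to 298 CPM in mutant Thy1+ and 259 to 278 CPM in control Thy1+ libraries, and 297 to 316 CPM in mutant c-Kit+ and 263 to 305 CPM in control c-Kit+ libraries. Counts over the whole gene do not show the loss of exons 11 to 13 and do not check the genotype labels.

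Per length, Lyz2 stood highest of the 10 genes in each of the 12 libraries and Cd163 lowest. Lyz2 encodes lysozyme M, which cleaves bacterial cell walls (gene ID 17105; mm10 chr10:117277541-117282272, minus strand, 4 exons), and it had 30.0 ± 10.7 RPKM in control Thy1+ libraries (mean ± SD, n = 3). The C1q chains followed, C1qc (gene ID 12262; chr4:136889802-136892914) with 14.6 ± 5.30 RPKM and C1qa (gene ID 12259; chr4:136895916-136898844) with 12.96 ± 3.60 RPKM. C1q is the recognition molecule of the classical complement pathway, and its chains are encoded next to each other. Mrc1, the mannose receptor CD206 (gene ID 17533; chr2:14229414-14332023), had 10.6 ± 2.80 RPKM. Cd68, a glycoprotein of lysosomes (gene ID 12514; chr11:69664371-69666062), had 7.25 ± 1.82 RPKM, and Csf1r, the receptor for CSF1 and IL-34 (gene ID 12978), had 7.14 ± 2.67 RPKM. Lower levels were found for C1qb (gene ID 12260; chr4:136880145-136886177; 4.52 ± 1.83 RPKM), for the fractalkine receptor Cx3cr1 (gene ID 13051; chr9:120048693-120068282; 2.95 ± 1.06 RPKM), and for Adgre1, which encodes F4/80 (gene ID 13733; chr17:57358686-57483529; 2.55 ± 0.925 RPKM). Cd163, the scavenger receptor for haemoglobin bound to haptoglobin (gene ID 93671; chr6:124304651-124330527), had 0.428 ± 0.220 RPKM. Neighbours in this order differed by less than the larger of their SDs, except Lyz2 from C1qc, Mrc1 from Cd68 and Adgre1 from Cd163. No test was made between genes. The order of the mean levels over all 12 libraries was the same.

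The bases before the transcript start are shown for the members on which the results turn: Lyz2 and Cx3cr1, which were called in c-Kit+ mutants, Mrc1, which had the highest CPM, and C1qb, which had the largest fold between control populations. The sequences are those of RefSeq on GRCm38.p6, 250 bases up to the start, 5′ to 3′ on the strand of the gene. The table held such a window for 7 of the 10 members, not for Csf1r, Adgre1 and C1qa. Capitals mark GAGGAA or its reverse complement TTCCTC, the core of sites for the myeloid factor PU.1, and TGCTGA or its reverse complement TCAGCA, the half-site of Maf factors. These motifs share no overlapping match in the windows shown.
Lyz2: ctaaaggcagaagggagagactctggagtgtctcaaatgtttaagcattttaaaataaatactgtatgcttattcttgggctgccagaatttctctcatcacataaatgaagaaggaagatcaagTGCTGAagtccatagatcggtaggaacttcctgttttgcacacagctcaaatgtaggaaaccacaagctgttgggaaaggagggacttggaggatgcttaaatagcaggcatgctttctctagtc
Mrc1: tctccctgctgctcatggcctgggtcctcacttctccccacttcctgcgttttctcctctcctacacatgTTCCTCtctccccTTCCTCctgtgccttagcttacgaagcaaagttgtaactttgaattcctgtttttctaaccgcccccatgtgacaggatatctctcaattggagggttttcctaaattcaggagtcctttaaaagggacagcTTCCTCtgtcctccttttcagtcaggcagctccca
C1qb: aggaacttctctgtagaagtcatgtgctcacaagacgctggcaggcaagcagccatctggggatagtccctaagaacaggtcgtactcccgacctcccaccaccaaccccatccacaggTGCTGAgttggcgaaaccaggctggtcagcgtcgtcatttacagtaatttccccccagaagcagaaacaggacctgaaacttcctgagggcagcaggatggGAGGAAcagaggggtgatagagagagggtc
Cx3cr1: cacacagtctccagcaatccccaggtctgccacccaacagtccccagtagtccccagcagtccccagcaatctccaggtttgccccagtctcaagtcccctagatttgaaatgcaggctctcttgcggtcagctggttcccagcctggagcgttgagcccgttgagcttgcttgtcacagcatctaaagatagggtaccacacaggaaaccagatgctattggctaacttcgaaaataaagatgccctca
The windows lie at chr10:117282273-117282522 for Lyz2, chr2:14229164-14229413 for Mrc1, chr4:136886201-136886450 for C1qb and chr9:120068297-120068546 for Cx3cr1. The PU.1 core was present in 4 of the 7 windows (Mrc1, Cd68, C1qb and C1qc), with 3 matches in that of Mrc1, against 23.3% of 32851 windows of the same length in the table. The Maf half-site was present in 2 of 7 (Lyz2 and C1qb), against 16.1% of windows. In C1qb both occurred, from 131 and from 30 bases before the start, and 3.68% of all windows held both. The windows of Cx3cr1 and Cd163 held neither run of letters, which says nothing about these factors.

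Differences between the sorted populations were the largest found for these genes. In control libraries 9 of 10 members were higher in Thy1+ than in c-Kit+ cells, by 2.49-fold (Cd68) to 5.38-fold (C1qb), and no member was lower. Over all 17350 genes tested, 20.7% were called higher and 7.08% lower in Thy1+ controls. The median log2 fold change was 2.12 over the members and 0.028 over all genes tested. In 9 of the 10, each Thy1+ control library lay above each c-Kit+ control library, which was so for 29.5% of all genes tested. Scaling by library size only left the member count at 9 but moved the share of called genes that were higher in Thy1+ from 74.5% to 63.7%.

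Among the receptors for growth factors and chemokines, Csf1r (chr18:61105572-61131139, plus strand, 22 exons) had 34.5, 32.8 and 15.8 CPM in control Thy1+ replicates 1, 2 and 3 and 9.44, 4.46 and 3.78 CPM in control c-Kit+ replicates. Its groups did not overlap, and its log2 fold change was 2.26 (SE 0.40, FDR = 0.00358). Cx3cr1, by which monocytes and macrophages sense fractalkine, had 14.1, 12.3 and 6.55 CPM in Thy1+ and 2.88, 2.15 and 1.69 CPM in c-Kit+ controls, a log2 fold change of 2.32 (SE 0.33, FDR = 0.00104). Both receptors were lowest in replicate 3 of each population.

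Of the uptake receptors and surface markers, Mrc1 had 68.0, 60.9 and 39.4 CPM in control Thy1+ replicates 1 to 3 and 19.7, 8.90 and 6.48 CPM in control c-Kit+ replicates. This was a log2 fold change of 2.29 (SE 0.40, FDR = 0.003). Adgre1 had 9.91, 10.1 and 4.80 CPM in Thy1+ and 4.08, 1.77 and 0.523 CPM in c-Kit+ controls, and its log2 fold change of 1.98 (SE 0.60, FDR = 0.0315) was no longer called without control Thy1+ replicate 2 (FDR = 0.0676) or control c-Kit+ replicate 2 (FDR = 0.106). Cd163 had 2.28, 2.69 and 0.805 CPM in Thy1+ and 1.25, 0.315 and 0.291 CPM in c-Kit+ controls. Here the groups overlapped, because the highest c-Kit+ library exceeded the lowest Thy1+ library, and the log2 fold change of 1.66 (SE 0.65) did not pass (FDR = 0.0736). Cd163 counts were 10 to 102 reads per library, the fewest of the members. It passed when the replicate number was a block in the fit (FDR = 0.0148, with 21.8% of all genes called higher), by the edgeR exact test (FDR = 0.0194) and by DESeq2 (FDR = 0.0342).

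Of the lysosomal and antimicrobial members, Lyz2 had 42.3, 33.1 and 19.8 CPM in control Thy1+ and 13.6, 5.18 and 6.25 CPM in control c-Kit+ replicates, a log2 fold change of 1.96 (SE 0.40, FDR = 0.00653). Counts of Lyz1, its close paralogue, were 0 to 6 reads per library. Cd68 had 9.04, 7.51 and 5.39 CPM in Thy1+ and 3.67, 3.12 and 2.18 CPM in c-Kit+ controls, a log2 fold change of 1.32 (SE 0.28, FDR = 0.00754), the smallest of the 10 in controls.

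The genes of the C1q chains had log2 fold changes of 2.1 (C1qa, SE 0.38, FDR = 0.00398), 2.43 (C1qb, SE 0.54, FDR = 0.00986) and 2.13 (C1qc, SE 0.46, FDR = 0.00867). C1qa had 17.1, 15.3 and 9.66 CPM in Thy1+ and 5.45, 2.58 and 2.00 CPM in c-Kit+ control replicates. C1qc had 19.2, 17.98 and 8.97 CPM against 6.35, 2.20 and 2.15 CPM, and C1qb had 6.58, 5.10 and 2.72 CPM against 1.75, 0.486 and 0.494 CPM. The RPKM of C1qa was 0.744 to 1.46 times that of C1qc over the 12 libraries. Both ends of this range came from mutant c-Kit+ libraries, where C1qa went from 6.31 CPM in replicate 2 to 3.27 CPM in replicate 3 while C1qc had 4.21 and 4.29 CPM. That of C1qb was 0.219 to 0.369 times that of C1qc. Of the 1062 exon bases of C1qb, 570 are shared with an unnamed gene on the other strand (gene ID 100862132), which had 0 counts in all 12 libraries, and counting without strand leaves reads on shared bases unassigned. Over the 492 unshared bases the ratio to C1qc was 0.473 to 0.796, so the level of C1qb given here is too low, whereas its differences between libraries are not affected by length.

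**Figure D1:**
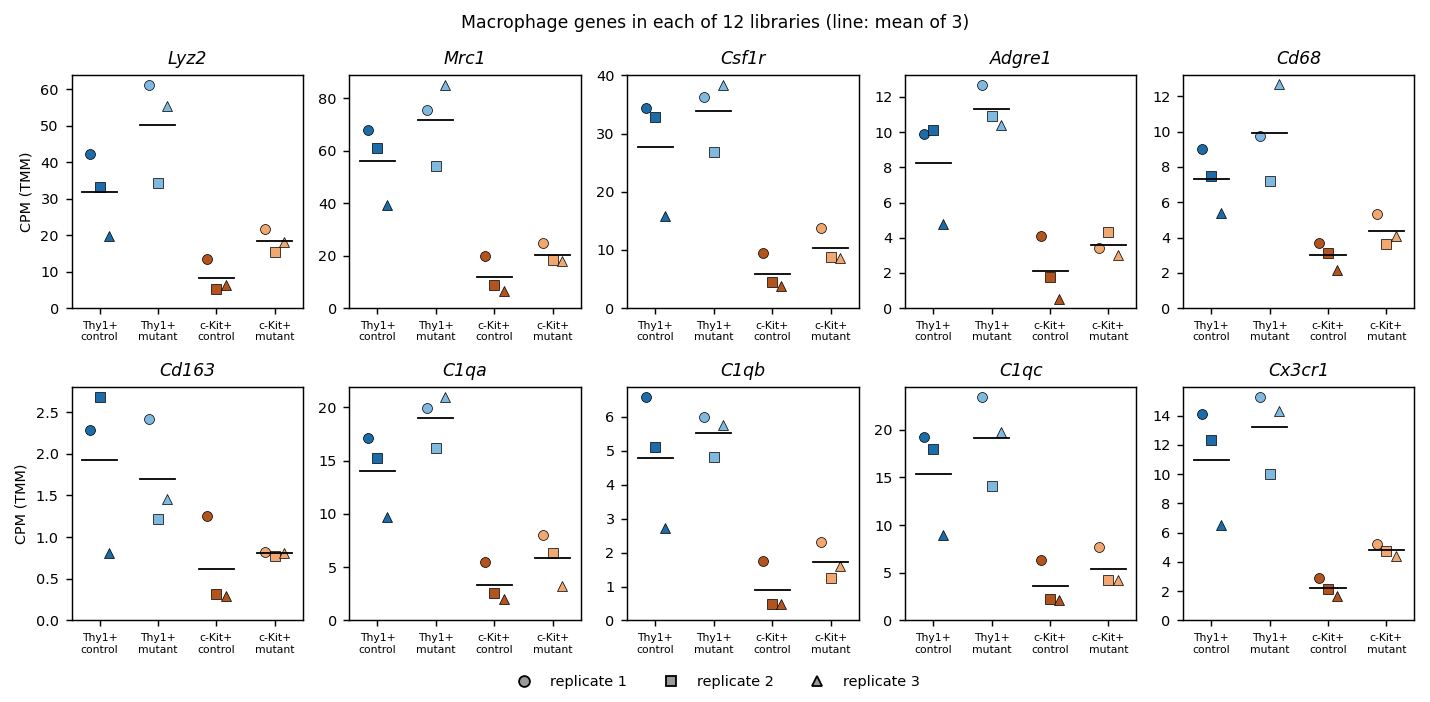
CPM after TMM scaling (y axis, linear from 0) of each of the 10 macrophage genes in every library of the 4 groups (x axis). Points are libraries, with a symbol for each replicate number, and the line is the mean of 3. Every member had its highest group mean in a Thy1+ group, and control c-Kit+ replicate 1 was the highest control c-Kit+ library for 10 of 10 genes.

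In mutant libraries the population difference was found again, with 10 of 10 members called higher in Thy1+ cells against 15.3% of all 17346 genes (5.03% were called lower). The groups did not overlap for 10 of 10, against 23.3% of all genes. The median log2 fold change was 1.72, and the members ran from 1.11 (Cd163, SE 0.35, FDR = 0.0441) to 1.86 (Mrc1, SE 0.19, FDR = 2.1e-04, and C1qc, SE 0.28, FDR = 0.0016). Mrc1 had 75.6, 54.2 and 85.1 CPM in mutant Thy1+ and 24.8, 18.2 and 17.8 CPM in mutant c-Kit+ replicates. Cd163 had 2.42, 1.21 and 1.46 CPM against 0.827, 0.779 and 0.811 CPM, and its call was lost when mutant Thy1+ replicate 1 or 3 or any mutant c-Kit+ replicate was left out (FDR = 0.0817 to 0.140), with library size only (FDR = 0.0505) and in a fit of all 12 libraries (FDR = 0.152). Library size only also moved the share of called genes that were higher in Thy1+ from 75.3% to 63.3%. Controls and mutants are separate libraries, so the mutant comparison shares no sample with that in controls.

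The make-up of the macrophage signal was given by the share of each gene in the summed RPKM of the 10. Lyz2 took 32.1% ± 1.53 in control Thy1+, 36.8% ± 2.92 in mutant Thy1+, 33.9% ± 4.86 in control c-Kit+ and 40.8% ± 4.04 in mutant c-Kit+ libraries (SD, n = 3). Cd68 took 7.99% ± 0.936 in control Thy1+ and 14.0% ± 4.30 in control c-Kit+ libraries, and the lowest control c-Kit+ library (9.67%) lay above the highest control Thy1+ library (9.06%). In mutants Cd68 took 7.67% ± 1.13 of the Thy1+ and 10.1% ± 0.670 of the c-Kit+ signal, again without overlap. Cd68 was not alone in this. Mrc1 took a smaller share in c-Kit+ libraries, also without overlap in either genotype. Its share was 11.55% ± 0.906 in control Thy1+ and 9.23% ± 1.10 in control c-Kit+ libraries, and 10.55% ± 0.770 and 8.92% ± 0.193 in mutants. Csf1r did not overlap in controls (6.90% to 8.33% in Thy1+, 6.37% to 6.80% in c-Kit+) but did in mutants. These shares were not tested.

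**Figure D2:**
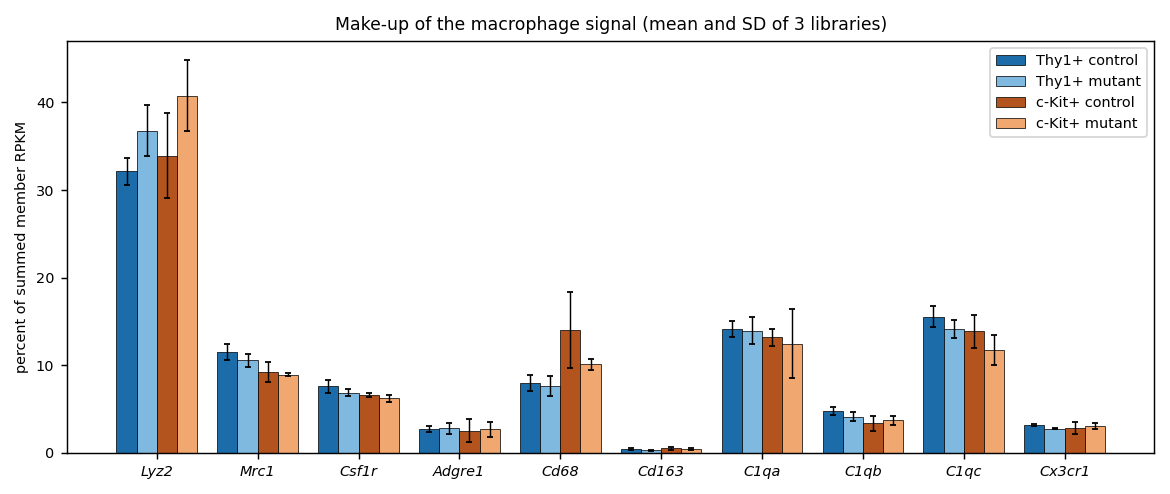
Share of each macrophage gene in the summed RPKM of the 10 genes (y axis, percent, from 0) in the 4 groups, as mean and SD of 3 libraries. Lyz2 took the largest share in every group (32.1% to 40.8%). Cd68 took a larger and Mrc1 a smaller share in c-Kit+ than in Thy1+ libraries.

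The question of most interest to the study, what loss of CHD8 changes, was asked within each population. In c-Kit+ cells, 2 of the 10 members, Lyz2 and Cx3cr1, were called higher in mutants. The estimates were above 0 for 10 of 10, from 0.32 (Cd163) to 1.08 (Lyz2), with a median of 0.75 against 0.011 over all genes tested. Of the 17134 genes tested, 14.8% were called higher and 7.41% lower, so that a share of 2 in 10 was near the background in this fit without the replicate block. With the block, given below, 7 of 10 members were called higher, against 15.8% of all genes. The groups did not overlap for 2 of 10 members, Lyz2 and Cx3cr1, against 31.6% of all genes that were higher in every mutant library.

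Lyz2 had 13.6, 5.18 and 6.25 CPM in control c-Kit+ and 21.6, 15.4 and 18.1 CPM in mutant c-Kit+ replicates 1, 2 and 3. Each mutant library was above each control library. The change was 2.11-fold, a log2 fold change of 1.08 (SE 0.30, FDR = 0.0175). It was not called without control c-Kit+ replicate 3 (log2 fold change 0.91, FDR = 0.0722) or without mutant c-Kit+ replicate 1 (0.94, FDR = 0.0661). Cx3cr1 had 2.88, 2.15 and 1.69 CPM in control and 5.23, 4.75 and 4.43 CPM in mutant c-Kit+ replicates. The change was 2.06-fold, a log2 fold change of 1.04 (SE 0.23, FDR = 0.00503), and Cx3cr1 had the smallest spread of the members among mutant c-Kit+ libraries after Cd163, at 4.80 ± 0.401 CPM.

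For the other 8 members, control c-Kit+ replicate 1 reached into the range of the mutants. Mrc1 had 19.7, 8.90 and 6.48 CPM in control and 24.8, 18.2 and 17.8 CPM in mutant replicates (log2 fold change 0.74, SE 0.33, FDR = 0.104). Csf1r had 9.44, 4.46 and 3.78 CPM against 13.8, 8.84 and 8.60 CPM (0.76, SE 0.32, FDR = 0.0836). Only the library of control replicate 1 overlapped with the mutants in both genes. Among the C1q chains, C1qa had 5.45, 2.58 and 2.00 CPM in control and 8.03, 6.31 and 3.27 CPM in mutant replicates (0.76, SE 0.39, FDR = 0.154). C1qb had 1.75, 0.486 and 0.494 CPM against 2.30, 1.24 and 1.59 CPM (0.85, SE 0.50, FDR = 0.203), and C1qc had 6.35, 2.20 and 2.15 CPM against 7.73, 4.21 and 4.29 CPM (0.54, SE 0.41, FDR = 0.325). In all of the chains, the mutant libraries were above control replicates 2 and 3. Adgre1 had 4.08, 1.77 and 0.523 CPM in control and 3.42, 4.33 and 3.01 CPM in mutant replicates (0.70, SE 0.51, FDR = 0.309). Cd68 had 3.67, 3.12 and 2.18 CPM against 5.31, 3.63 and 4.11 CPM (0.48, SE 0.24, FDR = 0.14). Cd163 had 1.25, 0.315 and 0.291 CPM against 0.827, 0.779 and 0.811 CPM (0.32, SE 0.55, FDR = 0.676), and here the highest library of all was a control. At an unadjusted p under 0.05 there were 4 members, against 8191 of 17134 genes.

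How many members were called in c-Kit+ mutants depended on control replicate 1 and on the pairing of libraries. Without control c-Kit+ replicate 1, 8 of 10 members were called higher, all but Cd68 and Cd163, with a median log2 fold change of 1.32, and 15.6% of all genes were called higher. Libraries with the same replicate number correlated at 0.101, 0.101 and 0.125 after subtraction of the group means, just past the limit of 0.1 for judging them paired. With the replicate block, 7 of 10 members were called higher (15.8% of all genes were), with Mrc1 at 0.86 (FDR = 0.00486), Csf1r at 0.83 (FDR = 0.00245), C1qa at 0.79 (FDR = 0.00996), C1qb at 1.02 (FDR = 0.0439) and C1qc at 0.65 (FDR = 0.0249) added to Lyz2 and Cx3cr1. Within the same number, mutants were above controls for 8 of 10 members in replicate 1 and for 10 of 10 in replicates 2 and 3. The edgeR exact test called 4 members and DESeq2 called 3, and of the 17134 genes tested they called 2758 and 2511 higher.

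In Thy1+ cells, without the replicate block, no member was called in either direction, and neither was any other gene by the quasi-likelihood test (0% of 17416 genes, with 2151 at an unadjusted p under 0.05; the edgeR exact test called 20 genes higher and 274 lower, and DESeq2 52 and 326, none of them members). Values of 9 of 10 members were above 0, from 0.20 (C1qb) to 0.67 (Lyz2), and Cd163 had −0.18 (SE 0.47). The median was 0.34 against 0.025 over all genes. Lyz2 had 42.3, 33.1 and 19.8 CPM in control and 61.2, 34.3 and 55.4 CPM in mutant Thy1+ replicates (SE 0.30, FDR = 0.41), and the mutant replicate 2 lay inside the range of controls. Adgre1 had 9.91, 10.1 and 4.80 CPM in control and 12.7, 10.9 and 10.4 CPM in mutant replicates (log2 fold change 0.46, SE 0.28, FDR = 0.511). It was the 1 member of 10 without overlap, against 6.49% of all genes that were higher in every mutant library. Cx3cr1, called in c-Kit+ mutants, had 15.3, 10.0 and 14.3 CPM in mutant Thy1+ replicates, beside 14.1, 12.3 and 6.55 CPM in controls (0.27, SE 0.29, FDR = 0.70). Csf1r had 36.3, 26.8 and 38.4 CPM in mutant Thy1+ replicates (0.29, SE 0.29, FDR = 0.666), and Mrc1 had 0.36 (SE 0.23, FDR = 0.528). Mutant replicate 2 lay under control replicate 1 in each of these. C1qa had 19.9, 16.2 and 21.0 CPM in mutant replicates (0.44, SE 0.22, FDR = 0.442), C1qb had 6.00, 4.81 and 5.77 CPM (0.20, SE 0.32, FDR = 0.787), and C1qc had 23.4, 14.1 and 19.8 CPM (0.32, SE 0.30, FDR = 0.656). Cd68 had 9.78, 7.23 and 12.7 CPM (0.44, SE 0.27, FDR = 0.505). In all of these genes control and mutant values overlapped.

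Libraries of the same number were paired more clearly in Thy1+ cells (correlations of 0.490, 0.478 and 0.266). With the replicate block, Lyz2 (0.68, FDR = 0.00591) and Adgre1 (0.51, FDR = 0.0306) were called higher, 2 of 10 members, against 3.2% of all genes. Mutants were above controls of the same number for 9 of 10 members in replicate 1, 3 of 10 in replicate 2 and 10 of 10 in replicate 3. Control Thy1+ replicate 3 was the lowest control library for 10 of 10 members. Without it the median log2 fold change fell to 0.097, that of C1qb became −0.078 and that of Cx3cr1 −0.00065.

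The difference between both genotype effects (c-Kit+ minus Thy1+) was tested as an interaction over all 12 libraries. No member passed, and 0% of 18002 genes did (1804 were at an unadjusted p under 0.05, and DESeq2 called 44 genes higher and 20 lower, none of them members). Estimates were above 0 for 10 of 10 members, from 0.11 (Cd68, SE 0.38) to 0.84 (Cx3cr1, SE 0.39, FDR = 0.503), with a median of 0.46 against 0.083 over all genes. A larger change in c-Kit+ than in Thy1+ cells was thus not shown for any of the 10.

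**Figure D3:**
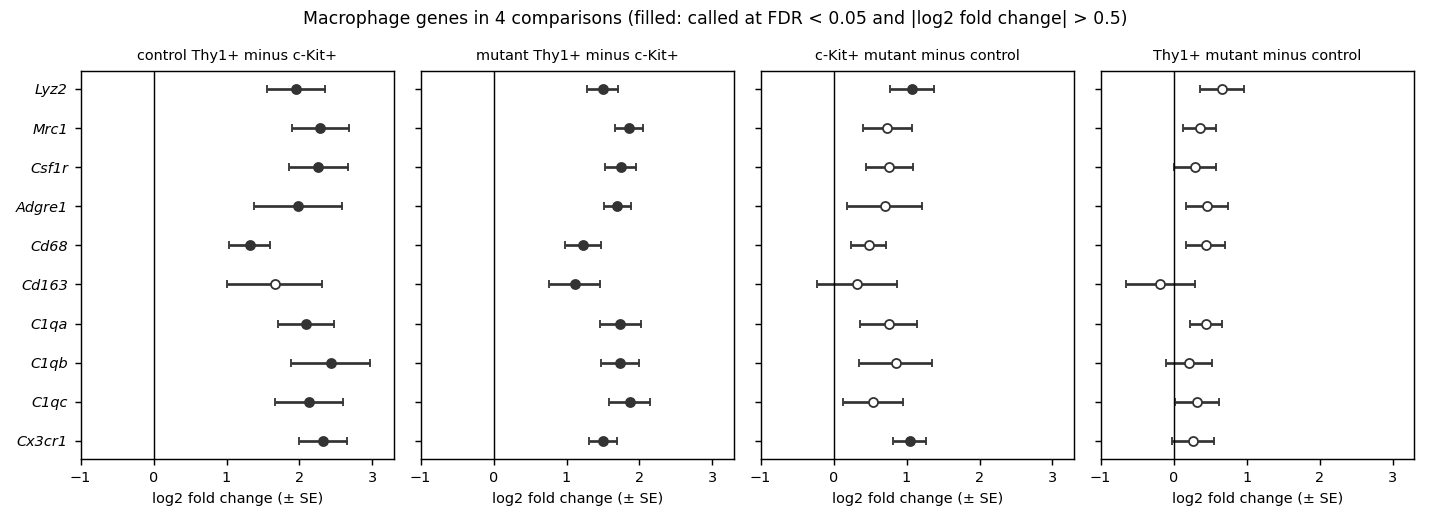
Log2 fold change with its standard error (x axis) of each of the 10 macrophage genes (y axis) in 4 comparisons. Filled points were called in fits without the replicate block. The members lie at 1.11 to 2.43 between populations, and at −0.18 to 1.08 between genotypes, where 2 points are filled, both in c-Kit+ cells.

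Within groups the members went up and down together. Control Thy1+ replicate 3 was the lowest of its group for 10 of 10 members, with a mean deviation of −0.65 log2 units from the group mean. Control c-Kit+ replicate 1 was the highest of its group for 10 of 10 (mean deviation 0.88), mutant c-Kit+ replicate 1 was the highest for 9 of 10 (0.30), and mutant Thy1+ replicate 2 was the lowest for 9 of 10 (−0.33). The summed level of the 10 was 223, 198 and 114 CPM in control Thy1+, 263, 180 and 264 CPM in mutant Thy1+, 68.2, 31.2 and 25.8 CPM in control c-Kit+ and 93.1, 67.7 and 66.0 CPM in mutant c-Kit+ replicates 1 to 3. The highest control c-Kit+ library thus held more than both lower mutant c-Kit+ libraries. Across the 12 libraries, with group means subtracted, each member correlated with the mean of the other 9 at r = 0.788 (Adgre1) to 0.980 (Csf1r), as a description over libraries that each share their cells and depth among all genes.

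**Figure D4:**
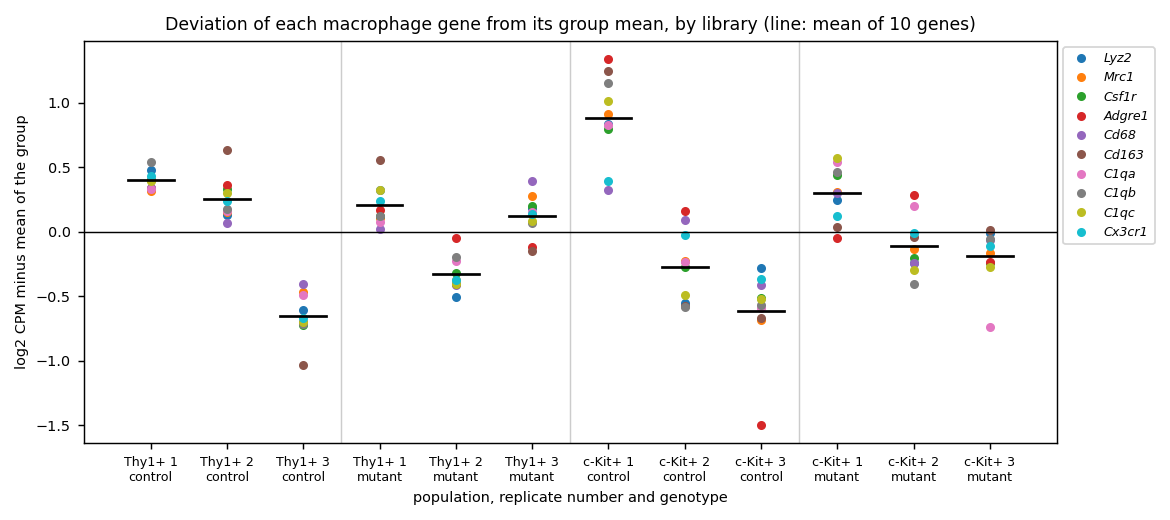
Deviation of the log2 CPM of each of the 10 macrophage genes from the mean of its group (y axis) in the 12 libraries (x axis). The line is the mean of the 10 genes. The points of a library lie mostly on the same side of 0, as in control Thy1+ replicate 3 (mean −0.65) and control c-Kit+ replicate 1 (mean 0.88).

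The 10 genes outside the list whose deviations over the 12 libraries were most like the mean of the members were Fbxw8 (Pearson r = 0.974), F13a1 (0.973), Slc11a1 (0.970), Itgam (0.961), Pde7b (0.959), Ctsc (0.957), Ctss (0.950), Pf4 (0.948), Ybx1 (0.941) and Stab1 (0.939). F13a1 encodes the A chain of coagulation factor XIII, Slc11a1 a metal transporter of phagosomes, Itgam the integrin CD11b, Ctsc and Ctss lysosomal cathepsins, Pf4 a chemokine and Stab1 a scavenger receptor. Of the 10, 5 stood on a list of general or resident macrophage genes. In Thy1+ against c-Kit+ controls 7 were called higher, beside 20.7% of all genes tested, among them F13a1 at 2.40 (FDR = 0.003) and Ctss at 2.63 (FDR = 0.0015). Fbxw8, Ybx1 and Pde7b shared the deviations but not the population difference: their log2 fold changes were 0.15 (FDR = 0.192), −0.06 (FDR = 0.615) and 0.61 (FDR = 0.306). Ctss was also called in c-Kit+ mutants, at 1.21 (FDR = 0.0108). As only 12 libraries enter these values, a high r over many genes can arise without any tie between them.

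The ligands of the member receptors were measured in the same libraries. Csf1 and Il34 encode the ligands of Csf1r, and Cx3cl1 encodes fractalkine, the ligand of Cx3cr1. In c-Kit+ mutants, 2 of the 3 were called higher, against 14.8% of all genes tested. Csf1 had 17.6, 14.7 and 15.5 CPM in control and 35.8, 27.3 and 27.9 CPM in mutant replicates (log2 fold change 0.87, SE 0.13, FDR = 7.1e-04). Cx3cl1 had 24.7, 19.4 and 28.0 CPM against 48.2, 34.0 and 44.8 CPM (0.76, SE 0.16, FDR = 0.00379). Control and mutant libraries did not overlap in either gene, nor in Il34, and 31.6% of all genes tested were higher in every mutant library. Il34 stayed under 1 CPM in c-Kit+ libraries and did not pass (0.78, SE 0.42, FDR = 0.165). Between control populations, Csf1 was higher in Thy1+ cells by 2.60 (SE 0.20, FDR = 3.7e-05) and Il34 by 3.10 (SE 0.36, FDR = 3.2e-04), whereas Cx3cl1 had 0.09 (SE 0.19, FDR = 0.732). None of the 3 was called in Thy1+ mutants.

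Further macrophage lists were counted in the same way. For these and the lists below, 20.7% of all genes tested were called higher and 7.08% lower in Thy1+ controls. In c-Kit+ mutants the shares were 14.8% and 7.41%. With the replicate block, 21.8%, 15.8% and 3.2% of all genes were called higher in Thy1+ controls, c-Kit+ mutants and Thy1+ mutants. Of 16 general macrophage and leukocyte genes, 12 were called higher in Thy1+ than in c-Kit+ controls (median 1.97), and 4 were called higher in c-Kit+ mutants (median 1.00), or 7 with the replicate block. In Thy1+ mutants the quasi-likelihood test called none without the replicate block and 2 with it, Mpeg1 (0.58, FDR = 2.5e-04) and Ms4a7 (1.05, FDR = 0.00474). Laptm5, a lysosomal protein of blood cells, had 2.37 (FDR = 0.00277) between populations and 1.05 (FDR = 0.0589) in c-Kit+ mutants. Mpeg1, a pore-forming protein of macrophages, had 0.57 (FDR = 0.187) and 1.02 (FDR = 0.00603). Coro1a, an actin regulator of leukocytes, had 1.57 (FDR = 0.00333) and −0.17 (FDR = 0.605). Of 10 resident macrophage genes, 9 were tested between control populations and 7 were called higher (median 2.27). In c-Kit+ mutants 8 were tested and 1 was called higher, Mertk, a receptor for apoptotic cells (0.80, FDR = 0.00407), while Stab1 had 0.65 (FDR = 0.0864) and F13a1 had 0.53 (FDR = 0.252). With the replicate block 3 of these 8 were called, Stab1 among them (0.69, FDR = 0.00154). Mertk and Mpeg1 did not follow the members within control c-Kit+ libraries, with 16.2, 9.44 and 13.4 CPM and 19.6, 8.95 and 14.9 CPM in replicates 1 to 3. Both were lowest in replicate 2, as was the summed level of the Sertoli list below (1012, 403 and 709 CPM), while 8 of 10 members were lowest in replicate 3. Which cells the transcripts of Mertk and Mpeg1 came from was not tested.

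Of 8 myeloid transcription factors, 5 were called higher in Thy1+ controls and 3 in c-Kit+ mutants, or 5 in c-Kit+ mutants with the replicate block. The shares over all genes were 20.7%, 14.8% and 15.8%. Between mutant populations, 3 of the 8 were called higher in Thy1+ cells and 2 lower, against 15.3% and 5.03% of all genes. Maf, which other cells of the testis also express, had 2.74 (FDR = 1.7e-05) and 1.03 (FDR = 2.4e-04), and Cebpa had −0.38 (FDR = 0.377) and 0.66 (FDR = 0.0849; with the replicate block 0.70, FDR = 0.00103). Complement genes outside C1q, of which C1s1, C1ra and Serping1 had the highest levels (294, 113 and 170 CPM over the 12 libraries), are also made by stromal cells. Of 10 such genes, 8 were called higher in Thy1+ controls. In c-Kit+ mutants C1ra (1.01, FDR = 3.5e-04), C1s1 (0.85, FDR = 4.8e-04), Serping1 (0.66, FDR = 0.00163) and 1 other were called higher and 1 was called lower.

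MHC class II genes present antigen to T cells. In c-Kit+ mutants, 5 of the 6 listed genes had an estimate above 0 (median 0.39), and 5 of 6 did between control populations (median 0.59), with H2-Ab1 the exception in both. The summed level of the list was 11.3 to 11.9 CPM in control Thy1+, 9.63 to 12.3 CPM in mutant Thy1+, 12.0 to 13.6 CPM in control c-Kit+ and 5.89 to 10.5 CPM in mutant c-Kit+ libraries. In controls, 1 of the 6 listed genes was called higher in Thy1+ cells, Itgax, which encodes the integrin CD11c of dendritic cells and no MHC molecule (2.13, FDR = 0.00191), and H2-Ab1 was called lower. The replicate block added Cd74 to the genes called higher (0.86, FDR = 0.0352). In c-Kit+ mutants, 1 of 6 was called, in the other direction from the members: H2-Ab1, the beta chain of I-A, had 6.06, 9.67 and 8.19 CPM in control and 1.57, 0.828 and 0.984 CPM in mutant replicates (log2 fold change −2.89, SE 0.27, FDR = 1.7e-04). Its groups did not overlap. In Thy1+ cells H2-Ab1 had 2.08, 4.45 and 3.92 CPM in control and 1.60, 0.824 and 1.69 CPM in mutant replicates, also without overlap (−1.35, SE 0.39, FDR = 0.30), and it was called with the replicate block (−1.32, FDR = 0.00769). H2-Ab1 was also lower in control Thy1+ than in control c-Kit+ cells (−1.18, SE 0.30, FDR = 0.0168). Without H2-Ab1, a sum chosen after its values were seen, the other 5 genes had 6.44, 3.98 and 3.83 CPM in control and 8.89, 5.06 and 5.01 CPM in mutant c-Kit+ replicates, and 7.13 to 9.80 CPM in control and 8.81 to 10.7 CPM in mutant Thy1+ libraries. The fall of the summed level in c-Kit+ mutants was thus that of H2-Ab1. Cd74, the invariant chain, had 0.34 (FDR = 0.63) and H2-Eb1 had 0.06 (FDR = 0.879) in c-Kit+ mutants.

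Other blood cells were looked for by their own lists. None of 8 neutrophil genes passed the filter in any comparison, with a summed level of 0.0590 to 0.843 CPM. Of 6 monocyte genes, 2 were tested between control populations and both were called higher in Thy1+ cells: Plac8 (2.90, FDR = 2.5e-05) and Ccr2, the receptor by which monocytes leave the marrow (4.13, FDR = 9.3e-04). Neither was called in c-Kit+ mutants, with 0.50 (FDR = 0.11) and 1.33 (FDR = 0.12). Ccr2 had 196, 99 and 74 reads in control Thy1+ and 12, 4 and 2 reads in control c-Kit+ replicates. It thus passed the filter through the Thy1+ libraries, and its call between populations is not independent of the filter. Plac8 had 112, 128 and 87 reads in control c-Kit+ replicates. The other monocyte genes did not pass the filter there. T cells carry Thy1 on their surface. Of 8 T and NK cell genes, 6 were called higher in Thy1+ controls (median 3.27). Cd3e, a chain of the T cell receptor complex, was not among them (−0.84, FDR = 0.0586, and called lower with the replicate block at FDR = 0.0161), and of 2 genes tested in c-Kit+ mutants it was the 1 called, at −3.66 (FDR = 3.9e-04), with 2.71, 4.26 and 5.17 CPM in control and 0.148, 0.219 and 0.637 CPM in mutant replicates. The other CD3 chains on the list did not share this level. In control c-Kit+ replicates 1 to 3, Cd3d had 0, 2 and 5 reads and Cd3g 4, 4 and 0, beside 93, 149 and 178 of Cd3e. In control Thy1+ replicates Cd3d had 18, 26 and 15 reads and Cd3g 111, 74 and 81, so both passed the filter through the Thy1+ libraries. The source of the Cd3e reads was not tested. Of 5 mast cell genes tested, 4 were called lower in Thy1+ than in c-Kit+ controls and 4 were called higher in c-Kit+ mutants. Mast cells carry c-Kit on their surface. Of the B cell genes tested, none was called in any comparison. Of 3 erythroid genes tested, none was called in c-Kit+ mutants, and 1 was called higher and 1 lower in Thy1+ controls.

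Markers of the other somatic cells of the testis were also called higher in c-Kit+ mutants, among them 10 of 10 Sertoli, 7 of 7 stromal, 7 of 7 endothelial, 4 of 6 Leydig and 3 of 6 peritubular myoid genes, and 3 of 8 germ cell genes were called lower. The summed Sertoli level was 403 to 1012 CPM in control and 1637 to 1789 CPM in mutant c-Kit+ libraries, the stromal level 1816 to 2274 and 3293 to 4379 CPM, and the germ cell level 3190 to 3708 and 2341 to 2677 CPM. Median log2 fold changes were 1.20 for Sertoli, 0.80 for stromal, 1.14 for endothelial and −0.37 for germ cell genes, beside 0.75 for the 10 macrophage genes. No marker list of these 5 somatic cell types had a gene at 0 in all libraries of a group. In Thy1+ mutants the medians were 0.66 for Sertoli, 0.34 for stromal, 0.29 for endothelial and −0.42 for germ cell genes. Calls of the edgeR exact test and DESeq2 were counted for the 10 members only. In the quasi-likelihood fit of the Thy1+ libraries, no gene of any list was called without the replicate block. With it, in the fit that takes the pairing into account, 9 of 10 Sertoli genes and 1 of 7 stromal genes were called higher, 4 of 8 germ cell genes were called lower, and no Leydig, peritubular myoid or endothelial gene was called. The part of the somatic cells in the macrophage result was not tested.

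Between control populations these lists went in different directions. Stromal genes were higher in Thy1+ cells like the members (7 of 7 called, median 2.73), as were 5 of 6 peritubular myoid (median 2.44) and 3 of 7 endothelial genes (median 0.47). Leydig genes were lower (5 of 6 called, median −1.46), and of 10 Sertoli genes none was called (median 0.08). With the replicate block 1 Sertoli gene was called higher, and the median was −0.21. Within control c-Kit+ libraries, replicate 1, where the members were highest, also had the highest Sertoli (1012 CPM), stromal (2274 CPM), endothelial (80.2 CPM) and peritubular myoid (64.5 CPM) level. It did not have the highest Leydig level (709 CPM, against 1221 CPM in replicate 3). Within control Thy1+ libraries, replicate 3, where the members were lowest, had the highest stromal (14500 CPM), Leydig (423 CPM) and endothelial (260 CPM) level. Replicate 1 had the highest Sertoli (1482 CPM) and peritubular myoid (486.5 CPM) level. The endothelial level of replicate 3 was mostly that of Cdh5 (218 CPM). The other endothelial genes, Pecam1, Kdr, Tek, Cldn5, Emcn and Vwf, were each highest in replicate 1.

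**Figure D5:**
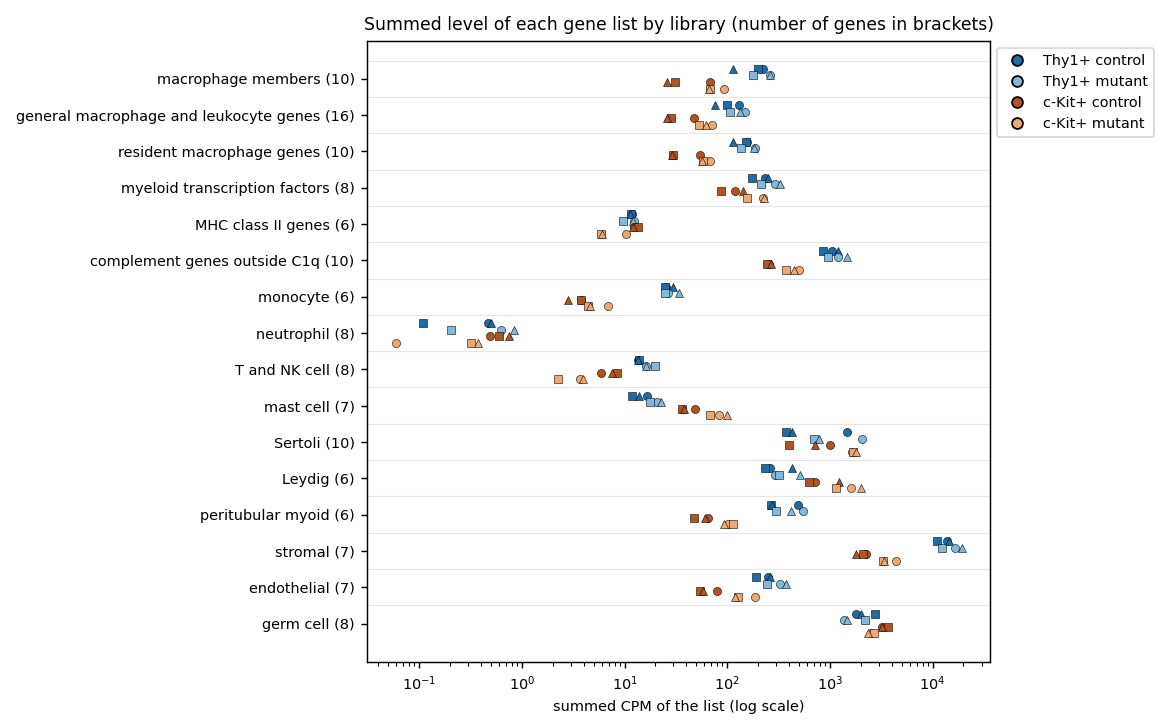
Summed CPM of each gene list (y axis, number of genes in brackets) in each library, on a log x axis. Colours are groups, and symbols are replicate numbers as in the plot of single genes. Where libraries lie close, symbols cover each other. The 10 macrophage genes and the general and resident macrophage lists lie highest in Thy1+ libraries, while the Leydig and mast cell lists lie highest in c-Kit+ libraries.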

How the data were processed

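The RNA of 12 libraries from sorted Thy1+ and c-Kit+ spermatogonia of control and Chd8 mutant mice was sequenced, and 30 ChIP samples of the series were not used here. Per the study's methods and the labels, the authors trimmed reads with Trimmomatic 0.39, aligned them to mm10 with HISAT2 2.1.0 and counted reads over RefSeq exons with featureCounts (2.0.3 in the table header). The deposited table holds raw counts per gene. Counting took single reads of pairs, without strand, and left out reads on bases shared by genes, so that overlapping genes such as C1qb are counted too low. Gene IDs were matched to RefSeq symbols (GRCm38.p6) for 25275 of 27179 rows. The other 1904 rows, with 0.511 to 0.776% of counts, stayed in all fits.

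Counts were tested with edgeR 4.0.16 in R 4.3.3 (filterByExpr, TMM, quasi-likelihood F test), with only the groups compared in each fit and all 12 libraries for the interaction, and adjusted over all genes tested. Fold changes are on edgeR's log2 scale with its default prior count. Deviations from group means were taken from log2 CPM with a prior count of 2. The members, the 18 other gene lists and the tests were chosen with earlier results of these data known. Named genes are the members, the ligands, the 3 genes of highest CPM of each other list used for a detailed account, the genes of like pattern, and genes named because a count turned on them (H2-Ab1, Itgax, Mertk, Cd3e, Ccr2 and Plac8), some of which were chosen after their values were seen. The values of 1 gene under this rule are not reported here. Alternatives were the edgeR exact test, DESeq2 1.42.0, other scalings and filters, a fit of all 12 libraries, the replicate number as a block, and leaving out each library. The main fits had no replicate block, also where libraries were judged paired. Libraries of the same number were judged paired where every correlation of their deviations from the group means was over 0.1. This held in c-Kit+ (lowest 0.101) and Thy1+ libraries (lowest 0.266) between genotypes and between control populations (lowest 0.134), but not between mutant populations (lowest 0.021). The labels give only the numbers, and the methods name littermates as controls without saying which libraries share a litter. Promoter sequences are from a RefSeq table. Python 3.11.15 was used for sequences and figures.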

Additional observations from a re-analysis of the deposited data

How the results depend on the processing

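Most values of single members kept their direction and their side of the threshold: of the alternatives run, 734 left a member's call as it was, 22 added a call, 12 removed one and 11 turned a direction. In c-Kit+ mutants the count of members called higher was 4 by the edgeR exact test, 3 by DESeq2, 7 with the replicate block and 1 to 8 when a library was left out (8 without control c-Kit+ replicate 1, 1 without control c-Kit+ replicate 3 or mutant c-Kit+ replicate 1), with a median of 0.47 to 1.32. Over all genes, the exact test called 2758 higher, DESeq2 2511, the replicate block 2705, and the fits without 1 library 2087 to 2735. Cd163 ranged from −0.015 without control c-Kit+ replicate 3 to 1.34 without control c-Kit+ replicate 1. In Thy1+ mutants the count was 2 with the replicate block and 0 otherwise, with a median of 0.097 to 0.51 when a library was left out. Cd163 ranged from −0.55 without control Thy1+ replicate 3 to 0.14 without control Thy1+ replicate 2. C1qb ranged from −0.078 to 0.49 and Cx3cr1 from −0.00065 to 0.48, lowest without control Thy1+ replicate 3 and highest without control Thy1+ replicate 1. Between populations 8 to 10 members were called in controls and 9 or 10 in mutants when a library was left out. Of all genes, 2917 to 3645 were called higher in Thy1+ controls and 1982 to 3229 in Thy1+ mutants in these fits. The interaction was called for no member under any alternative, and its median was 0.19 to 1.05. Its estimate turned for Cd68 (−0.076 without control Thy1+ replicate 1, −0.0042 without control Thy1+ replicate 2, −0.078 without mutant Thy1+ replicate 2, −0.077 without control c-Kit+ replicate 3 and −0.062 without mutant c-Kit+ replicate 1, up to 0.32 without mutant Thy1+ replicate 3), for Adgre1 (−0.15 without control c-Kit+ replicate 3, up to 1.19 without control c-Kit+ replicate 1) and for C1qc (−0.059 without mutant c-Kit+ replicate 1, up to 1.00 without control c-Kit+ replicate 1). The causes were not tested, and these fits also hold fewer libraries.

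Over all genes, Thy1+ mutants had 558 genes higher and 856 lower with the replicate block, and 14 and 236 in a fit of all 12 libraries. The interaction had 422 and 24 genes with the replicate block. The replicate block removed the call of Cd163 between mutant populations (FDR = 0.0519), where libraries were not paired. Without Mrc1 the summed member level was 122, 164, 30.0 and 55.3 CPM in control Thy1+, mutant Thy1+, control c-Kit+ and mutant c-Kit+ libraries, against 178, 236, 41.7 and 75.6 CPM with it. With 3 libraries a group, single members at low levels are the least certain. Such were Cd163, with 10 to 102 reads and a mean of 1.26 CPM over the 12 libraries, and C1qb in control c-Kit+ libraries (mean 0.909 CPM).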
